A study of Mus musculus with 15 samples.

Results

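Autophagy is the route by which a cell wraps cytoplasm, worn organelles or bacteria in a double membrane and delivers them to the lysosome. A kinase complex around ULK1 starts the process, a class III phosphatidylinositol 3-kinase complex marks the site, lipid carriers let the membrane grow, and ubiquitin-like conjugation attaches proteins of the ATG8 family to it. Cargo receptors bind both the load and the ATG8 proteins, and several of them are degraded together with the load. In macrophages the pathway is known for clearing intracellular bacteria and damaged mitochondria and for limiting inflammasome activity. The set described here holds 37 genes of this machinery, chosen by symbol with earlier results of these data known. All 37 were found among the 25639 symbols of the count table, and all were among the 12401 genes with enough counts to test.

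The cells were RAW264.7, a mouse macrophage-like line of wild-type (WT) genotype by its label, and the peptide was LCCL, named in the series title for its core motif as a potential drug. LCCL was given at 1 µg or at 10 µg, and cells of either dose were taken after 6 h or after 24 h. The fifth group had no treatment. Each of the 5 groups had 3 libraries, which makes 15 in all. The doses are labelled without a volume, a vehicle group is not named, and the time at which untreated cells were taken is not stated, so time in culture and LCCL cannot be told apart in a comparison with untreated cells, nor between times. Nothing in the labels says that libraries of a group came from separate cultures, so the spread behind each p-value may be technical.

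Library totals ran from 19085148 to 22434642 counts. Levels are CPM, counts scaled by the TMM-adjusted library size, except those of the cell-type markers, which were scaled by unadjusted library totals. TMM factors were 0.973 to 0.977 in untreated libraries and 1.022 to 1.055 in 24 h libraries. Marker values at 24 h would therefore be lower against untreated cells on the adjusted scale. "Rose", "fell" and "called" stand for an adjusted p under 0.05 in edgeR's quasi-likelihood test over all tested genes, and changes are log2 fold changes ± SE. Of 10 macrophage markers, 9 had at least 10 counts in every library, while Mertk had 0 to 3 counts. The summed macrophage markers were lower at 10 µg for 24 h, at 11878 to 12649 CPM, against 14584 to 15122 CPM in untreated cells. At 1 µg for 24 h that sum was 14303 to 17047 CPM. Lyz2 made up most of the sum, at 7469 to 11655 CPM over all libraries, where no other macrophage marker passed 2130 CPM. The sum therefore does not show which way the other macrophage markers moved. A list of 5 T cell markers summed to 7.36 to 8.15 CPM in 1 µg 24 h cells and 8.21 to 9.90 CPM in 10 µg 24 h cells, against 3.56 to 4.23 CPM in untreated cells. Of that list Lck alone passed 10 counts in every library, and Cd3e and Cd3g were at 0 in all 15. A list of 6 fibroblast markers, 3 of them at 0 throughout, summed to 0.622 to 2.05 CPM in 1 µg 24 h cells and 0.248 to 0.681 CPM in 10 µg 24 h cells, against 0.223 to 0.291 CPM in untreated cells. Of the fibroblast list only Pdgfrb exceeded 2 counts in any library, at 2 to 44 counts. The part of these shifts in the results for autophagy genes was not tested, and in bulk RNA fewer cells of a kind and less RNA per cell cannot be told apart. Replicate 1 of the 1 µg 24 h group stood apart from its group: over all genes its counts differed from the other two by chi-square values of 13.5 and 15.3 per gene, against 5.71 between those. Counts of genes called that involve this group are therefore followed by the counts without it, where these differ.

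At 6 h hardly any autophagy gene moved, and at 24 h most did. After 1 µg for 6 h, 0 of the 37 genes were called, where 0% of all tested genes were called, and 1 of the 37 was at an unadjusted p under 0.05. DESeq2 and limma-voom also called 0 of the 37. After 10 µg for 6 h, 1 gene rose, Sqstm1, and 0 fell, where 5.95% of all tested genes were called, 4.09% higher and 1.86% lower. That share of all tested genes was 3.11% to 3.75% without any 1 of the 6 libraries and 12.5% with only the groups compared in the fit, and Sqstm1 was called in each of these fits. After 1 µg for 24 h, 22 rose and 4 fell, where 61.8% of all tested genes were called, 30.8% higher and 31% lower. Without the library that stood apart, the same comparison again gave 22 and 4, with Atg7 called (adjusted p 0.0118) and Atg2b not. In that fit 3649 of 12488 tested genes rose and 3742 fell. Counts by role at 1 µg for 24 h were the same without that library except for membrane supply and the conjugation enzymes. After 10 µg for 24 h, 26 rose and 1 fell, where 35.4% of all tested genes rose and 34.9% fell. As a share of the 37 genes that was 70.3% higher and 2.70% lower. The share called in either direction, 73.0%, lay near the 70.3% of all tested genes. The median log2 fold change of the 37 genes was 0.25 after 1 µg for 24 h and 0.40 after 10 µg for 24 h. Over all tested genes it was 0.01 in both comparisons. Libraries of 1 µg for 24 h lay wholly above the untreated ones in 62.2% of the 37 genes and wholly below in 10.8%. Of all tested genes 32.2% lay wholly above and 32.5% wholly below. At 10 µg for 24 h the shares were 75.7% and 5.41% of the 37 genes, against 36.2% and 36% of all tested genes. At 10 µg for 6 h they were 8.11% and 5.41%, against 14% and 13.3%.

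**Figure D1:**
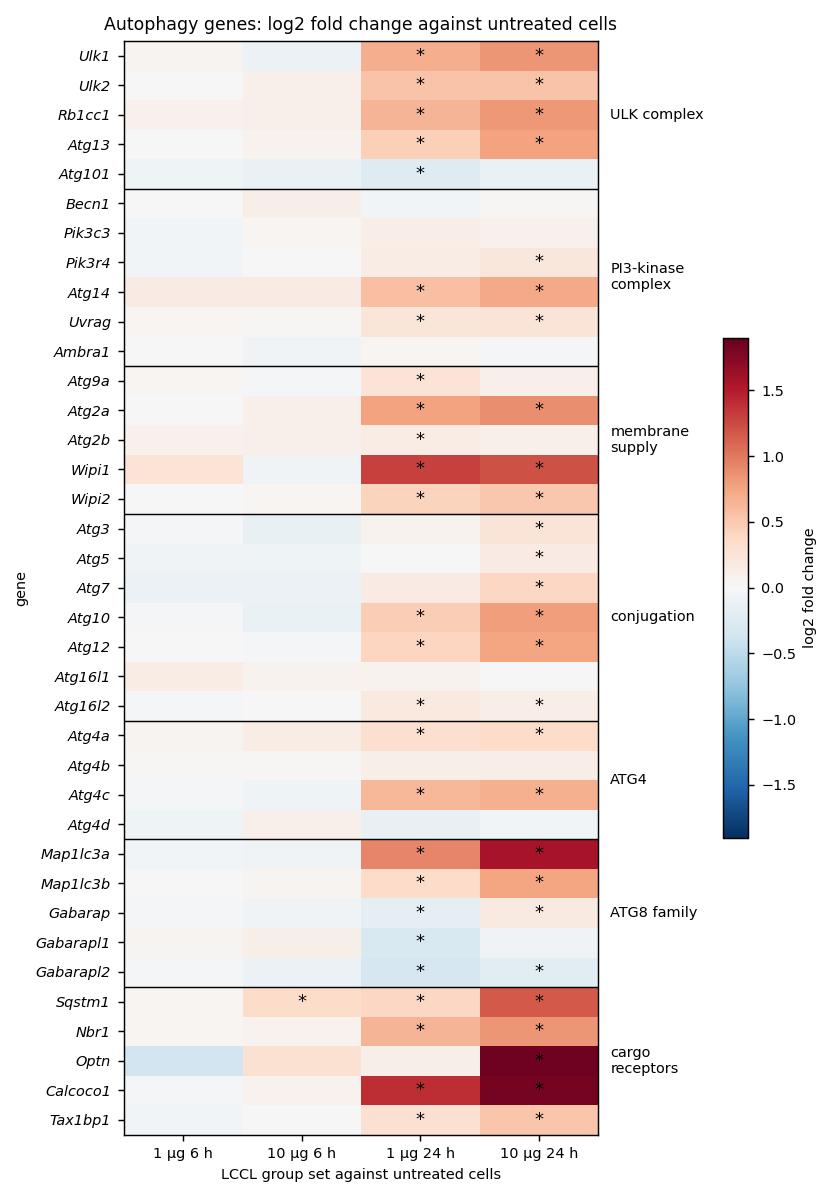
Log2 fold change of each of the 37 autophagy genes (rows, grouped by role) in 4 LCCL groups against untreated cells (columns, 6 h on the left and 24 h on the right), with an asterisk where the edgeR adjusted p was under 0.05. The 2 columns at 6 h hold 1 asterisk, for Sqstm1 at 10 µg, and the 2 columns at 24 h hold 26 and 27, most of them on positive values.

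The cargo receptors rose together at 10 µg for 24 h: all 5 were higher in that group than in untreated cells, where 35.4% of all tested genes were. All 5 were also higher than at 1 µg for 24 h, where 16% of all tested genes were. Sqstm1 encodes p62, which binds ubiquitinated cargo and is itself degraded by autophagy. It had the highest level per transcript length of the 37 genes, above 99.1% of tested genes with an annotated length in untreated cells. Its stretch of promoter, from 150 bases before to 10 bases after the RefSeq start site (GRCm38.p6, chr11:50210811-50210970, minus strand), is shown because Sqstm1 was the only one of the 37 genes called at 6 h. It is printed 5′ to 3′ with no capitals, since it holds none of the motifs searched further on.
Sqstm1: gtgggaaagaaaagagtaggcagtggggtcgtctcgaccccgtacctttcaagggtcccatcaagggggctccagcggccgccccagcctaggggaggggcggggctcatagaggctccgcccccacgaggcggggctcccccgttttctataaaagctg

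Sqstm1 stood at 766, 750.4 and 717 CPM after 1 µg for 6 h and at 894, 929 and 956 CPM after 10 µg for 6 h, against 742, 746 and 694 CPM in untreated cells. At 24 h it stood at 1048, 856 and 973 CPM with 1 µg and at 1475, 1692 and 1712 CPM with 10 µg. The 10 µg libraries lay above all untreated libraries at both times, the 1 µg 24 h libraries did so too, and the 1 µg 6 h libraries overlapped the untreated ones. The log2 fold change against untreated cells was 0.35 ± 0.06 (edgeR adjusted p 0.00133) at 10 µg for 6 h, 0.40 ± 0.06 (edgeR adjusted p 1.06e-05) at 1 µg for 24 h and 1.16 ± 0.07 (edgeR adjusted p 8.79e-14) at 10 µg for 24 h. Sqstm1 shares 580 exon bases with Mrnip on the opposite strand in GENCODE M21, and Mrnip averaged 117 counts per library against 20575 for Sqstm1.

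Calcoco1 encodes a receptor for the endoplasmic reticulum and the Golgi. It stood at 33.5, 35.3 and 37.3 CPM in 1 µg 24 h cells and 42, 49.1 and 49.7 CPM in 10 µg 24 h cells, against 13.2, 13.5 and 13.4 CPM in untreated cells. All 6 libraries at 24 h were above the 9 others, with log2 fold changes against untreated cells of 1.41 ± 0.08 (edgeR adjusted p 2.07e-13) at 1 µg and 1.81 ± 0.08 (edgeR adjusted p 3.68e-16) at 10 µg, and the 6 libraries at 6 h ran from 12.3 to 15.1 CPM. Nbr1, a ubiquitin-binding receptor that works with p62, stood at 156, 139.7 and 145 CPM in 1 µg 24 h cells and 164, 167 and 177 CPM in 10 µg 24 h cells, against 91.6, 96 and 95.1 CPM in untreated cells. The ranges of the 3 groups did not overlap, and the changes from untreated cells were 0.64 ± 0.05 (edgeR adjusted p 3.22e-11) and 0.85 ± 0.05 (edgeR adjusted p 5.25e-14) for the lower and higher dose. Tax1bp1, a ubiquitin-binding receptor that also restrains inflammatory signalling, stood at 149, 144 and 138 CPM in 1 µg 24 h cells and 160.4, 174 and 173 CPM in 10 µg 24 h cells, against 121, 112 and 119 CPM in untreated cells. These groups did not overlap either, with log2 fold changes of 0.29 ± 0.05 (edgeR adjusted p 4.06e-05) at 1 µg and 0.52 ± 0.05 (edgeR adjusted p 2.41e-09) at 10 µg. At 6 h the libraries ran from 95.5 to 100.4 CPM for Nbr1 and from 107 to 122 CPM for Tax1bp1, and neither gene was called.

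Optn encodes optineurin, a receptor for damaged mitochondria and bacteria, and had the lowest level of the 37 genes. It had 65, 73 and 74 raw counts in 10 µg 24 h libraries, against 23, 17 and 20 in untreated libraries. In CPM it stood at 3.11, 3.68 and 3.59 in 10 µg 24 h cells, against 1.12, 0.776 and 0.994 in untreated cells, and at 1.15, 0.993 and 0.985 in 1 µg 24 h cells. The 10 µg 24 h libraries lay above the 12 others, and those of 1 µg for 24 h overlapped untreated cells. Its log2 fold change was 1.84 ± 0.24 (edgeR adjusted p 1.39e-07) at 10 µg for 24 h and 0.12 ± 0.27, not called, at 1 µg for 24 h. At 6 h it stood at 1.02, 1.23 and 1.3 CPM with 10 µg and 0.80, 0.60 and 0.846 CPM with 1 µg, and was not called.

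**Figure D2:**
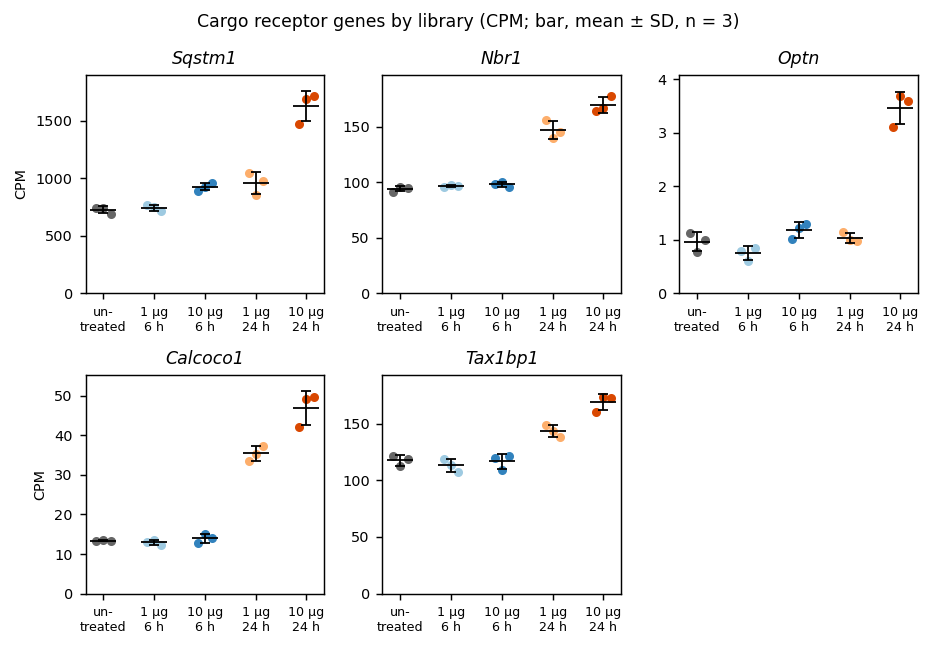
CPM of the 5 cargo receptor genes in each library (points) of the 5 groups, in order of time and dose, with the group mean ± SD (n = 3). Sqstm1 is highest in the 10 µg 24 h libraries, at 1475 to 1712 CPM, and Optn leaves the level of about 1 CPM in that group alone.

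The ATG8 family, the ubiquitin-like proteins that coat the growing membrane, split by branch. Both LC3 genes rose at 24 h at both doses, where 30.8% of all tested genes rose at 1 µg and 35.4% at 10 µg. Of the GABARAP branch 3 of 3 genes fell at 1 µg for 24 h, where 31% of all tested genes fell. At 10 µg for 24 h 1 rose, 1 fell and 1 was not called, where 34.9% of all tested genes fell. Map1lc3b, the LC3 gene most used as an autophagosome marker, stood at 60.2, 61.8 and 69.9 CPM in 1 µg 24 h cells and 76.8, 83.7 and 93 CPM in 10 µg 24 h cells, against 51.4, 46.4 and 52.9 CPM in untreated cells. The 3 groups did not overlap, and the changes were 0.35 ± 0.07 (edgeR adjusted p 0.00012) at 1 µg and 0.75 ± 0.07 (edgeR adjusted p 4.62e-10) at 10 µg. Map1lc3a, the second LC3 gene, stood at 6.93, 6.61 and 7.24 CPM in 1 µg 24 h cells and 7.86, 12.6 and 11.9 CPM in 10 µg 24 h cells, against 3.42, 3.74 and 3.78 CPM in untreated cells. The ranges of the 3 groups did not overlap, with changes of 0.92 ± 0.17 (edgeR adjusted p 4.40e-05) at 1 µg and 1.56 ± 0.17 (edgeR adjusted p 5.59e-09) at 10 µg, and replicate 1 of the 10 µg 24 h group was the lowest of its group.

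Gabarap was the only one of the 37 genes called in opposite directions at the 2 doses against untreated cells. It stood at 199.96, 208 and 219 CPM in 1 µg 24 h cells and 244, 275 and 282 CPM in 10 µg 24 h cells, against 237, 238 and 237 CPM in untreated cells. All 1 µg 24 h libraries were below and all 10 µg 24 h libraries above the untreated ones, with log2 fold changes of -0.18 ± 0.05 (edgeR adjusted p 0.00382) and 0.17 ± 0.05 (edgeR adjusted p 0.00568). Gabarapl1 stood at 58.2, 53.4 and 48.1 CPM in 1 µg 24 h cells and 56.1, 64.4 and 64.7 CPM in 10 µg 24 h cells, against 65.1, 62.8 and 66.8 CPM in untreated cells. It fell by 0.28 ± 0.07 on the log2 scale at 1 µg (edgeR adjusted p 0.000554), and the 10 µg value of -0.07 ± 0.06, with overlapping libraries, was not called. Gabarapl2 stood at 33.9, 33.3 and 32.5 CPM in 1 µg 24 h cells and 30.6, 39.3 and 38.1 CPM in 10 µg 24 h cells, against 39.4, 42.5 and 42 CPM in untreated cells. Both 24 h groups lay below untreated cells, at 10 µg with a highest value just under the lowest untreated one, with changes of -0.31 ± 0.08 (edgeR adjusted p 0.00083) at 1 µg and -0.20 ± 0.08 (edgeR adjusted p 0.0213) at 10 µg. The 10 µg call rests on replicate 1 of that group, without which the change was -0.09 (edgeR adjusted p 0.251). It was also lost without untreated replicate 2 (adjusted p 0.0701) or 3 (adjusted p 0.0568).

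Per kilobase of the longest principal transcript of each gene, Gabarap made up most of the family's RNA in every group. Its share was 66.8% ± 0.711 in 10 µg 24 h cells, against 67.8% ± 0.631 in untreated cells (SD, n = 3). Map1lc3b held 11.3% ± 0.457 in 10 µg 24 h cells, against 7.66% ± 0.467 in untreated cells, and Map1lc3a 3.25% ± 0.537, against 1.26% ± 0.0651. These shares depend on the transcript length: with all exons of a gene merged, Map1lc3b held 5.32% ± 0.234 in 10 µg 24 h cells, against 3.54% ± 0.222 in untreated cells. Processed pseudogenes at least 95% identical to Map1lc3b and Gabarapl2 are annotated in GENCODE M21, and reads could be split between these copies, so the levels of these 2 genes are uncertain to that extent.

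**Figure D3:**
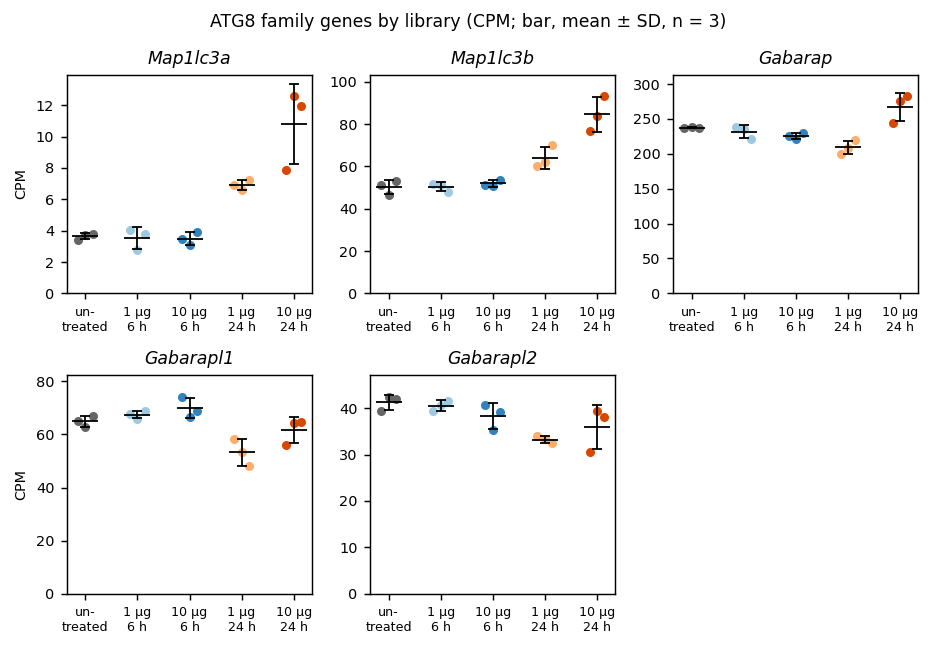
CPM of the 5 ATG8 family genes in each library (points) of the 5 groups, in order of time and dose, with the group mean ± SD (n = 3). Map1lc3a and Map1lc3b climb at 24 h with dose, while Gabarap lies at 199.96 to 219 CPM at 1 µg for 24 h and at 244 to 282 CPM at 10 µg for 24 h.

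Of the ULK initiation complex, the kinase assembly that starts autophagosome formation, 4 of 5 genes (80%) rose at both doses at 24 h. Of all tested genes 30.8% rose at 1 µg for 24 h and 35.4% at 10 µg. None of the 5 was called at 6 h, where 0% of all tested genes were called at 1 µg and 5.95% at 10 µg. Ulk1, the kinase itself, stood at 33.5, 32 and 34.5 CPM in 1 µg 24 h cells and 37.4, 36.3 and 36.6 CPM in 10 µg 24 h cells, against 19.4, 19.9 and 22.6 CPM in untreated cells. Rb1cc1, the large scaffold of the complex, stood at 60.2, 54.4 and 57.4 CPM in 1 µg 24 h cells and 59.2, 70.6 and 63.8 CPM in 10 µg 24 h cells, against 34.7, 38.8 and 35.9 CPM in untreated cells. Atg13, the adaptor that links kinase and scaffold, stood at 145, 132 and 124 CPM in 1 µg 24 h cells and 162, 162 and 172 CPM in 10 µg 24 h cells, against 91.9, 99.9 and 100.3 CPM in untreated cells. In all 3 genes the 6 libraries at 24 h lay above the untreated ones. The log2 fold changes at 1 µg and 10 µg for 24 h were 0.69 ± 0.07 and 0.83 ± 0.07 for Ulk1 (edgeR adjusted p 4.33e-09 and 6.37e-11). They were 0.65 ± 0.07 and 0.82 ± 0.07 for Rb1cc1 (edgeR adjusted p 5.46e-09 and 3.44e-11). For Atg13 they were 0.46 ± 0.05 and 0.76 ± 0.05 (edgeR adjusted p 7.47e-08 and 2.92e-12). The 6 h libraries ran from 18.7 to 22.6 CPM for Ulk1, 37 to 41.3 CPM for Rb1cc1 and 96.3 to 104 CPM for Atg13. A processed pseudogene, Gm13961, is 95.6% identical to Rb1cc1 over 1324 bases, so the level of Rb1cc1 is uncertain to that extent. Ulk2, the second kinase, rose by 0.53 ± 0.07 and 0.54 ± 0.07 on the log2 scale at the 2 doses. Atg101, which steadies Atg13, fell by 0.25 ± 0.08 at 1 µg for 24 h (edgeR adjusted p 0.0113) and was not called at 10 µg (-0.12 ± 0.08). The fall of Atg101 was lost without untreated replicate 2 (adjusted p 0.0694) or 1 µg 24 h replicate 2 (adjusted p 0.0613).

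Of the class III phosphatidylinositol 3-kinase complex 2 of 6 genes (33.3%) rose at 1 µg for 24 h, where 30.8% of all tested genes did, and 3 (50%) at 10 µg, where 35.4% did, and none fell. Atg14, the subunit that sends the complex to the forming membrane, rose by 0.56 ± 0.07 (edgeR adjusted p 3.37e-07) at 1 µg and 0.71 ± 0.07 (edgeR adjusted p 3.20e-09) at 10 µg for 24 h. Uvrag, its counterpart in the endosomal form of the complex, rose by 0.24 ± 0.06 and 0.24 ± 0.06, and Pik3r4, the regulatory subunit, by 0.21 ± 0.07 at 10 µg. Becn1, the scaffold of the complex, Pik3c3, its lipid kinase, and Ambra1, which ties it to the ULK kinases, were not called in any of the 9 comparisons. Their log2 fold changes at 10 µg for 24 h were 0.03 ± 0.06, 0.09 ± 0.08 and -0.03 ± 0.06. Becn1 stood at 91.7, 85.6 and 83.4 CPM in 10 µg 6 h cells, against 81.2, 78.2 and 82.5 CPM in untreated cells, so these groups did not overlap, but the difference was not called. Becn1 shares 3104 exon bases with Cntd1 on the opposite strand, and Uvrag 1589 with Gm45187, and whether counting used strand is not given in the sources used here.

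Genes of membrane supply rose at the lower dose already, as did 4 of 5 ULK complex genes and 4 of 5 cargo receptors. All 5 membrane supply genes rose at 1 µg for 24 h (4 without 1 µg 24 h replicate 1), where 30.8% of all tested genes did. At 10 µg 3 of 5 (60%) rose, where 35.4% of all tested genes did. Wipi1, which reads the lipid made by that kinase, stood at 8.22, 7.17 and 7.88 CPM in 1 µg 24 h cells and 6.95, 6.35 and 8.64 CPM in 10 µg 24 h cells, against 2.93, 3.56 and 2.98 CPM in untreated cells. Atg2a, a lipid transfer protein, stood at 67.8, 61.1 and 63.1 CPM in 1 µg 24 h cells and 70.7, 64.2 and 73.1 CPM in 10 µg 24 h cells, against 37.9, 36.1 and 38.8 CPM in untreated cells. Wipi2, which recruits the conjugation machinery, stood at 85, 88.6 and 90.9 CPM in 1 µg 24 h cells and 89.1, 97.6 and 95.3 CPM in 10 µg 24 h cells, against 65.9, 66.6 and 64.7 CPM in untreated cells. The 24 h libraries of these 3 genes lay above the untreated libraries throughout. The log2 fold changes at 1 µg and 10 µg were 1.29 ± 0.15 and 1.21 ± 0.15 for Wipi1 (edgeR adjusted p 5.54e-08 and 1.08e-07). For Atg2a they were 0.77 ± 0.06 and 0.88 ± 0.06 (edgeR adjusted p 5.67e-11 and 1.38e-12). For Wipi2 they were 0.42 ± 0.05 and 0.52 ± 0.05 (edgeR adjusted p 4.96e-08 and 7.56e-10). The 6 h libraries ran from 2.8 to 4.2 CPM for Wipi1, 36.6 to 41.6 CPM for Atg2a and 64.9 to 69.6 CPM for Wipi2, and none was called there. Atg9a, which carries seed membrane, rose by 0.25 ± 0.05 (edgeR adjusted p 0.000288) at 1 µg for 24 h, and its value at 10 µg was 0.10 ± 0.06, not called. Its values are uncertain because it shares 1832 exon bases with Gm29253 on the same strand in GENCODE M21. Atg2b, the second lipid transfer gene, rose by 0.14 ± 0.05 (edgeR adjusted p 0.0217) at 1 µg and was at 0.09 ± 0.05, not called, at 10 µg. The Atg2b call was lost without untreated replicate 2 (adjusted p 0.0519), untreated replicate 3 (adjusted p 0.0521) or 1 µg 24 h replicate 1 (adjusted p 0.0812).

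**Figure D4:**
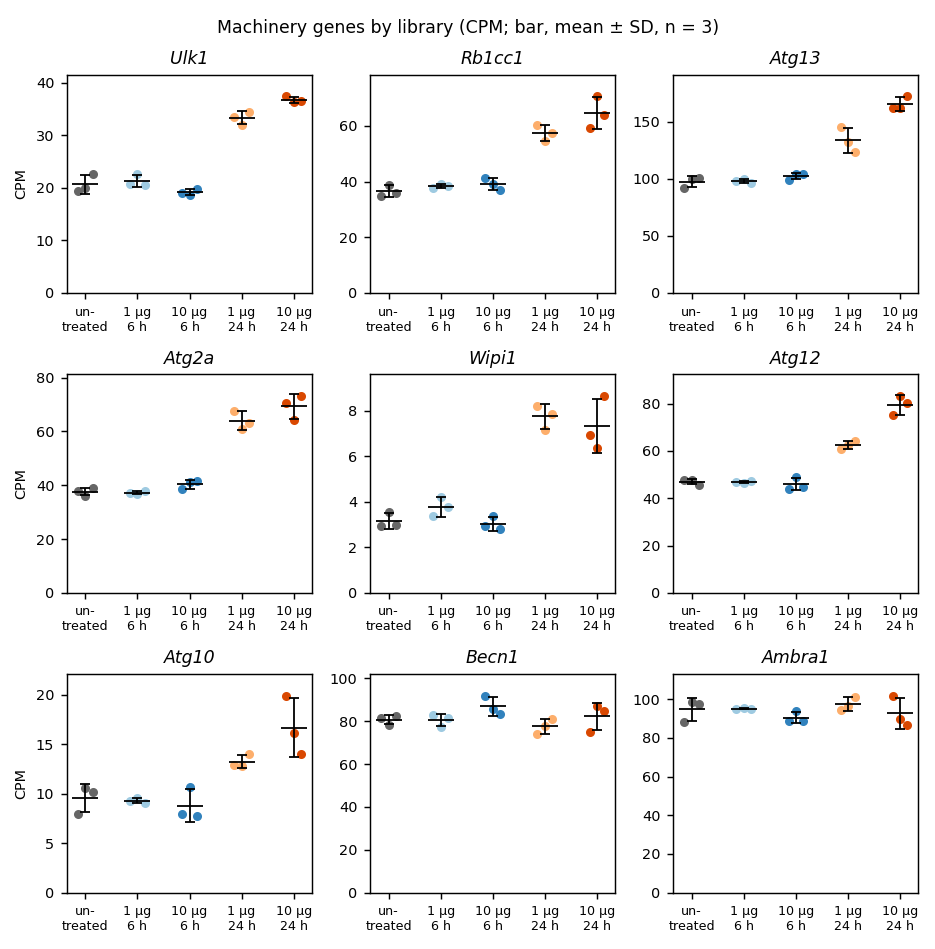
CPM of 9 machinery genes in each library (points) of the 5 groups, in order of time and dose, with the group mean ± SD (n = 3). Ulk1, Rb1cc1, Atg13, Atg2a, Wipi1, Atg12 and Atg10 are higher in the 24 h groups than in untreated cells, while Becn1 and Ambra1, which were not called in any comparison, overlap between either 24 h group and untreated cells.

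The conjugation enzymes attach ATG8 proteins to lipid. Of the 7 genes, 3 (42.9%) rose at 1 µg for 24 h (4 without 1 µg 24 h replicate 1), where 30.8% of all tested genes did. At 10 µg 6 of 7 (85.7%) rose, where 35.4% of all tested genes did. Atg12, the ubiquitin-like protein joined to ATG5, stood at 60.6, 62.7 and 64.2 CPM in 1 µg 24 h cells and 75, 83.2 and 80.2 CPM in 10 µg 24 h cells, against 47.7, 47.6 and 45.8 CPM in untreated cells. The 3 groups did not overlap, with log2 fold changes of 0.41 ± 0.05 (edgeR adjusted p 4.70e-07) at 1 µg and 0.76 ± 0.05 (edgeR adjusted p 3.60e-12) at 10 µg, and 6 h values ran from 44.1 to 48.8 CPM. Atg10, the enzyme that passes ATG12 to ATG5, stood at 12.9, 12.8 and 14 CPM in 1 µg 24 h cells and 19.9, 16.2 and 14 CPM in 10 µg 24 h cells, against 8.0, 10.6 and 10.1 CPM in untreated cells. The 24 h libraries of Atg10 lay above the untreated ones, and the changes were 0.47 ± 0.13 (edgeR adjusted p 0.00396) and 0.80 ± 0.13 (edgeR adjusted p 8.31e-06) for 1 µg and 10 µg. Atg7, the activating enzyme of both conjugation routes, rose at 10 µg by 0.40 ± 0.07 (edgeR adjusted p 1.78e-05) and was at 0.15 ± 0.07, not called, at 1 µg.

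Atg3, which hands ATG8 proteins to the membrane lipid, stood at 51.2, 54.5 and 48.9 CPM in 10 µg 24 h cells, against 42.2, 43.7 and 44.5 CPM in untreated cells. The libraries did not overlap, and the rise was 0.24 ± 0.06 (edgeR adjusted p 0.00123). At 1 µg for 24 h Atg3 stood at 42.8, 45.7 and 48.1 CPM and was not called. Atg5 rose at 10 µg by 0.16 ± 0.06 (edgeR adjusted p 0.0302), a call that DESeq2 did not make (adjusted p 0.0517). It was also lost with no filter on low counts (adjusted p 0.074) and without untreated replicate 2 (adjusted p 0.117), untreated replicate 3 (adjusted p 0.0709) or 10 µg 24 h replicate 1 (adjusted p 0.0982). Atg16l2, a relative of Atg16l1, rose by 0.18 ± 0.06 (edgeR adjusted p 0.00921) at 1 µg and 0.13 ± 0.06 (edgeR adjusted p 0.0477) at 10 µg. Its call at 10 µg was lost in DESeq2 (adjusted p 0.0737), with no filter on low counts (adjusted p 0.115), with only the groups compared (adjusted p 0.0785) and without any 1 of the 6 libraries (adjusted p 0.0504 to 0.177), and that at 1 µg without 1 µg 24 h replicate 2 (adjusted p 0.0517). Atg16l1, which places the conjugation complex on the membrane, was not called in any comparison.

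Transcription factors of the TFEB and TFE3 family bind the sequence CACGTG in promoters of lysosome and autophagy genes, so the promoter windows of the set were read for it. RefSeq windows of GRCm38.p6, from 250 bases before to 50 bases after a start site, were matched to 31 of the 37 genes, and 4 genes held CACGTG, which reads the same on both strands. That was 12.9% of the matched genes, where 8.09% of all 27025 genes with a window held it. The 4 genes were Atg3, Atg5, Atg7 and Atg14. All 4 rose at 10 µg for 24 h, as did 23 of the 31 matched genes. The longer form TCACGTGA, which contains CACGTG, was in Atg3 alone among the 31, and in 1.12% of all genes. TGACNNNGC, the core of the antioxidant response element, was in 4 of the 31 genes on either strand (Atg13, Map1lc3b, Ulk2 and Tax1bp1), or 12.9%, against 13.99% of all genes. TGATGNAA, the core of an ATF4 composite element, was in 0 of the 31 and in 4.51% of all genes. Such matches are letters in a window and show no binding. The stretches from 150 bases before to 10 bases after the start site of the 4 genes are printed 5′ to 3′ on the gene's strand, with CACGTG in capitals. They lie at chr16:45158679-45158838 (Atg3, plus strand), chr10:44268189-44268348 (Atg5, plus strand), chr6:114670946-114671105 (Atg7, plus strand) and chr14:47568425-47568584 (Atg14, minus strand) of GRCm38.p6.
Atg3: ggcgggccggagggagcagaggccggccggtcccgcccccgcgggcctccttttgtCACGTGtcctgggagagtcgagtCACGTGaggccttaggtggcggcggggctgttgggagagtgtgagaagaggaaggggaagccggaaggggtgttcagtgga
Atg5: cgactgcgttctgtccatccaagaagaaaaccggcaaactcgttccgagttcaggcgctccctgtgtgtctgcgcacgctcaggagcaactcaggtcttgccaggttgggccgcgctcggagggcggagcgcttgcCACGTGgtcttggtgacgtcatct
Atg7: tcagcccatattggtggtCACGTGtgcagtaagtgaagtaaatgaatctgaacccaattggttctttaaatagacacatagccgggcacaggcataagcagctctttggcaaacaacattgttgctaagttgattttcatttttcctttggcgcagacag
Atg14: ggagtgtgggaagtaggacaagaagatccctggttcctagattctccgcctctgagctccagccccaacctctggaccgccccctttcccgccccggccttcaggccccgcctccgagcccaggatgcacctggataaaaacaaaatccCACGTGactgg

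The ATG4 proteases trim ATG8 proteins before conjugation and release them afterwards. At 24 h 2 of the 4 genes (50%) rose at either dose. Of all tested genes 30.8% rose at 1 µg for 24 h and 35.4% at 10 µg. Atg4c stood at 23.6, 26.6 and 26.6 CPM in 1 µg 24 h cells and 26.2, 27.1 and 26.3 CPM in 10 µg 24 h cells, against 15.9, 17.9 and 15.9 CPM in untreated cells. Both 24 h groups lay above untreated cells, with log2 fold changes of 0.63 ± 0.08 (edgeR adjusted p 1.03e-07) at 1 µg and 0.68 ± 0.08 (edgeR adjusted p 1.59e-08) at 10 µg. Atg4a rose by 0.32 ± 0.09 (edgeR adjusted p 0.00312) and 0.34 ± 0.09 (edgeR adjusted p 0.00142), and these values are uncertain because the transcript of Atg4a-ps, which is also in the table, is 99.3% identical to it over 2115 bases. Atg4b and Atg4d were not called in any comparison. Atg4d shares 1405 exon bases with Kri1 on the opposite strand.

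The comparison of doses within a time asked where the response grew from 1 µg to 10 µg. At 6 h, 1 gene was higher at 10 µg and 0 were lower, where 2.35% of all tested genes were called, 1.85% higher and 0.492% lower. The 2.35% became 0.887% to 1.3% without any 1 of the 6 libraries and 8.82% with only the groups compared in the fit. The gene was again Sqstm1, with a log2 fold change of 0.32 ± 0.06 (edgeR adjusted p 0.00736). That call was lost without 1 µg 6 h replicate 3 (adjusted p 0.064) or 10 µg 6 h replicate 3 (adjusted p 0.0633). At 24 h, 15 genes were higher at 10 µg and 1 was lower, where 35.3% of all tested genes were called, 16% higher and 19.3% lower. Without the 1 µg library that stood apart, 14 were higher and 0 lower: Atg3, Atg10 and Atg9a were no longer called, and Atg2a was (adjusted p 0.0491). In that fit 1793 of 12488 tested genes were higher and 2227 lower. With all libraries the median log2 difference of the 37 genes was 0.13, against -0.01 over all tested genes.

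By role, the higher ones at 24 h were 5 of 5 cargo receptors (100%) and 4 of 5 ATG8 genes (80%). So were 4 of 7 conjugation genes (57.1%) and 2 of 5 ULK complex genes (40%), where 16% of all tested genes were higher. Without 1 µg 24 h replicate 1, 2 of 7 conjugation genes (28.6%) and 1 of 5 membrane supply genes (20%) were higher, where 1793 of 12488 tested genes were. No gene of the lipid kinase complex, of membrane supply or of the ATG4 proteases was higher at 10 µg than at 1 µg with all libraries. Optn differed most, by 1.72 ± 0.23 (edgeR adjusted p 1.63e-06), followed by Sqstm1 at 0.76 ± 0.06 (edgeR adjusted p 2.12e-09) and Map1lc3a at 0.64 ± 0.15 (edgeR adjusted p 0.0018). Calcoco1 (0.41 ± 0.07), Map1lc3b (0.40 ± 0.07), Gabarap (0.35 ± 0.05), Atg12 (0.35 ± 0.05), Atg13 (0.31 ± 0.05) and Tax1bp1 (0.23 ± 0.05) were also higher at 10 µg. In these 9 genes every 10 µg 24 h library lay above every 1 µg 24 h library, which was so for 16 of the 37 genes (43.2%) and for 19.3% of all tested genes. Nbr1 and Atg7 were also called higher, while left-out libraries ended the other 5 calls, as did a fit of only the groups compared (adjusted p 0.0525 to 0.11). Gabarapl1 (0.21 ± 0.07) lost its call without 1 µg 24 h replicate 3 or 10 µg 24 h replicate 2 or 3, at adjusted p-values of 0.0709 to 0.0898. Atg3 (0.18 ± 0.06) and Atg10 (0.33 ± 0.13) lost theirs without replicate 1 or 2 of either group. Rb1cc1 (0.17 ± 0.06) lost its call without replicate 2 or 3 of either group. DESeq2 called neither Rb1cc1 (adjusted p 0.0621) nor Atg10 (adjusted p 0.0563). The only lower gene was Atg9a, at -0.16 ± 0.05 (edgeR adjusted p 0.0275). It lost the call without 1 µg 24 h replicate 1 (adjusted p 0.0699) or 2 (adjusted p 0.129), or 10 µg 24 h replicate 2 (adjusted p 0.105). Among these 5 genes, the value of Rb1cc1 became 0.10 without 10 µg 24 h replicate 2, and that of Atg10 0.18 without 10 µg 24 h replicate 1. For Ulk2 the difference between doses at 24 h was 0.00 ± 0.07, for Wipi1 -0.08 ± 0.14 and for Atg4c 0.05 ± 0.07, none of them called.

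**Figure D5:**
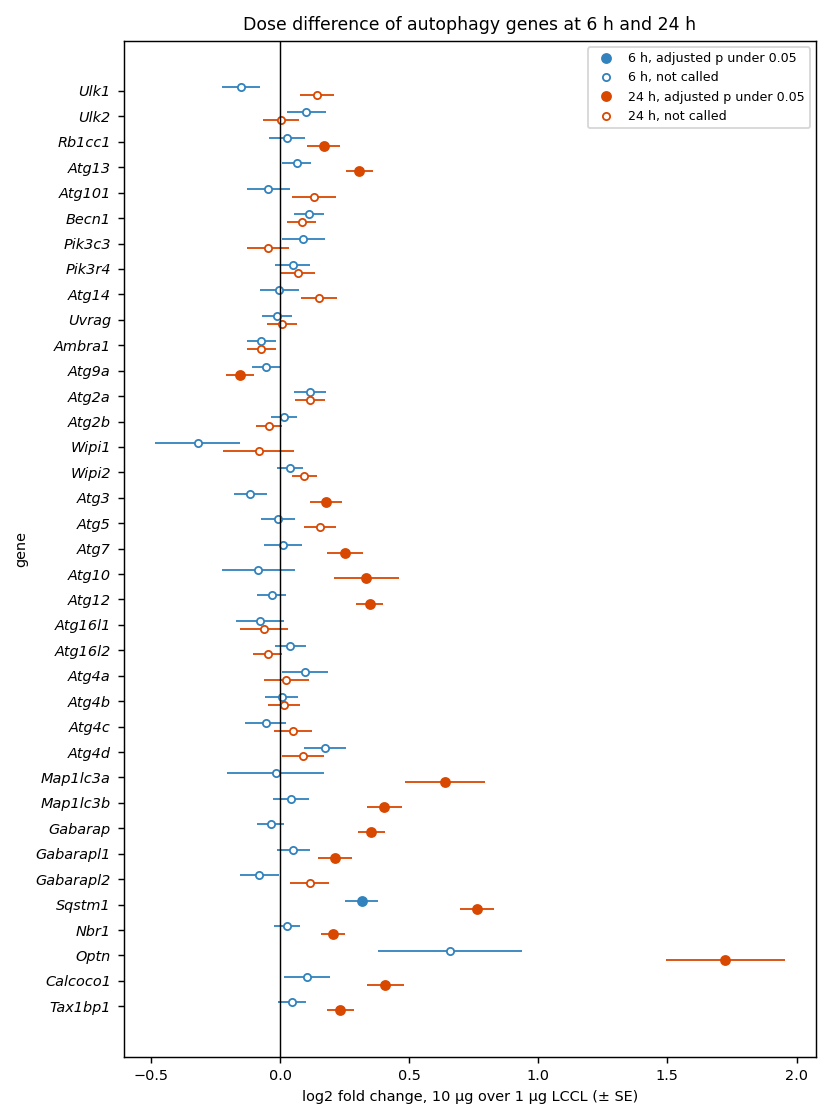
Log2 fold change of 10 µg over 1 µg LCCL (± SE) for the 37 genes, at 6 h in blue and at 24 h in orange, with filled points where the edgeR adjusted p was under 0.05. At 6 h 1 point is filled, Sqstm1, and at 24 h 16 are, with Optn farthest to the right at 1.72 and Atg9a the only filled point left of 0.

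The comparison of times within a dose set 24 h of LCCL against 6 h, and time in culture and length of exposure cannot be told apart in it. At 1 µg, 23 genes were higher at 24 h than at 6 h and 3 were lower, where 60.7% of all tested genes were called, 30.3% higher and 30.5% lower. Without 1 µg 24 h replicate 1 these counts were 23 and 2, with Gabarap and Atg4a no longer called and Pik3c3 called (adjusted p 0.0364). In that fit 3629 of 12488 tested genes were higher and 3716 lower. At 10 µg, 26 were higher and 1 lower, where 69.2% of all tested genes were called, 34% higher and 35.2% lower. Calcoco1 rose most between times at 10 µg, by 1.75 ± 0.08 (edgeR adjusted p 8.32e-16), with 42, 49.1 and 49.7 CPM at 24 h, against 12.9, 15.1 and 14 CPM at 6 h. Sqstm1 rose by 0.81 ± 0.06 at 10 µg and by 0.37 ± 0.06 at 1 µg, Ulk1 by 0.94 ± 0.07 and 0.64 ± 0.07, and Atg4c by 0.75 ± 0.08 and 0.65 ± 0.08. All of these were called. The genes that fell at 1 µg were Gabarap (-0.15 ± 0.05), Gabarapl1 (-0.34 ± 0.07) and Gabarapl2 (-0.29 ± 0.08), and at 10 µg Gabarapl1 (-0.18 ± 0.06). The 10 µg call of Gabarapl1 was lost without 10 µg 6 h replicate 1 (adjusted p 0.0962), and without 10 µg 24 h replicate 1 its value was -0.11 (adjusted p 0.136). The Gabarap call was lost without 1 µg 6 h replicate 1 (adjusted p 0.0847) or 2 (adjusted p 0.0556), or 1 µg 24 h replicate 1 (adjusted p 0.0654).

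The interaction of dose and time, which tests whether the difference between doses was larger at 24 h than at 6 h, was positive and called in 8 genes and negative in 0, where 18.6% of all tested genes were called, 7.58% positive and 11% negative. The 8 were Sqstm1, Optn, Gabarap, Map1lc3b, Atg12, Atg3, Atg13 and Ulk1. Gabarap had the smallest adjusted p, with an interaction of 0.39 ± 0.07 (edgeR adjusted p 0.000564), then Atg12 with 0.38 ± 0.08 (edgeR adjusted p 0.00107) and Sqstm1 with 0.45 ± 0.09 (edgeR adjusted p 0.00121). The count was again 8 without 1 µg 24 h replicate 1, where Optn and Atg3 lost their calls and Nbr1 and Tax1bp1 gained one. It ran from 4 to 12 as single libraries were left out, where 14.1% to 21.8% of all tested genes were called. The count was 4 without 10 µg 6 h replicate 1. It was 5 without 1 µg 6 h replicate 1, 1 µg 24 h replicate 2, 10 µg 24 h replicate 2 or 10 µg 24 h replicate 3.

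Further genes around the pathway were taken from 5 lists, written from textbook knowledge but with earlier results of these data known. Their shares are therefore no independent evidence. Their counts stand beside the 30.8% of all tested genes that rose and 31% that fell at 1 µg for 24 h, and the 35.4% and 34.9% at 10 µg. Beyond the 37 genes, 6 of 15 initiation and membrane genes (40%) rose and 3 (20%) fell at 1 µg for 24 h, and 8 (53.3%) rose and 1 (6.67%) fell at 10 µg. Tecpr1, which tethers autophagosomes to lysosomes, moved farthest of the 4 named: it stood at 111, 125 and 147 CPM in 1 µg 24 h cells and 302, 329.7 and 365 CPM in 10 µg 24 h cells, against 49, 49.1 and 47.7 CPM in untreated cells. The groups did not overlap, and the changes were 1.39 ± 0.09 (edgeR adjusted p 7.84e-10) and 2.77 ± 0.09 (edgeR adjusted p 3.78e-14) for the lower and higher dose. Rubcn, which restrains the class III kinase, rose by 0.71 ± 0.07 at 10 µg, its relative Rubcnl by 1.32 ± 0.11 and Vps13d, a lipid transfer gene, by 0.31 ± 0.06, each with an edgeR adjusted p of at most 1.83e-05.

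Of 32 tested genes of mTORC1, AMPK and stress control, 9 (28.1%) rose and 7 (21.9%) fell at 1 µg for 24 h, and 16 (50%) rose and 10 (31.2%) fell at 10 µg. Without 1 µg 24 h replicate 1, 11 rose and 5 fell at 1 µg for 24 h. At 10 µg for 6 h 3 (9.38%) rose and 1 (3.12%) fell, where 4.09% and 1.86% of all tested genes did, and the total of 4 became 1 where untreated replicate 3 or 10 µg 6 h replicate 2 was left out. It became 2 where untreated replicate 1 or 10 µg 6 h replicate 1 was left out. Sesn2, a stress gene that restrains mTORC1, stood at 61.1, 61.2 and 62.5 CPM in 1 µg 24 h cells and 72.8, 82 and 86.3 CPM in 10 µg 24 h cells, against 11.1, 11.4 and 12.4 CPM in untreated cells. It changed by 2.41 ± 0.07 (edgeR adjusted p 1.30e-18) and 2.79 ± 0.07 (edgeR adjusted p 4.44e-20), with no overlap of groups. Ddit4, another mTORC1 inhibitor, averaged 8.42 ± 1.17 CPM in 10 µg 24 h cells, against 1.62 ± 0.385 CPM in untreated cells, a rise of 2.38 ± 0.20 (edgeR adjusted p 9.82e-11). Rragc, a GTPase that places mTORC1 on the lysosome, rose by 0.66 ± 0.05 at 10 µg and Fnip2, a partner of folliculin, by 0.76 ± 0.05, while at 1 µg for 24 h they were at 0.07 ± 0.05 and -0.04 ± 0.05, not called.

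Of 10 tested transcription factors of autophagy and lysosome genes, 4 (40%) rose and 0 fell at 1 µg for 24 h, and 5 (50%) rose and 1 (10%) fell at 10 µg. Atf4, which drives the amino acid response, averaged 688 ± 45.7 CPM in 10 µg 24 h cells, against 274 ± 15.6 CPM in untreated cells, a rise of 1.33 ± 0.06 (edgeR adjusted p 2.46e-16). Foxo3, Foxo1 and Zkscan3, a repressor of lysosome genes, rose by 0.28 ± 0.05, 0.38 ± 0.10 and 0.32 ± 0.05 at 10 µg for 24 h. Foxo3 fell by 0.20 ± 0.05 at 10 µg for 6 h (edgeR adjusted p 0.023), the only call of the list there. That count of 1 became 0 where replicate 1 or 3 of either group was left out. Of 16 fusion genes, 5 (31.2%) rose and 6 (37.5%) fell at 1 µg for 24 h, shares close to those of all tested genes, and 7 (43.8%) rose and 1 (6.25%) fell at 10 µg. Without 1 µg 24 h replicate 1, 5 rose and 5 fell at 1 µg for 24 h. Ykt6, a SNARE of the autophagosome, fell by 0.60 ± 0.06 at 10 µg, while Epg5, a tether, rose by 0.68 ± 0.06, Vps39, of the HOPS tether, by 0.56 ± 0.06 and Lamp2, a lysosomal membrane protein, by 0.56 ± 0.06, all called. Of 23 further receptors and adaptors, 11 (47.8%) rose and 5 (21.7%) fell at 1 µg for 24 h, and 14 (60.9%) rose and 5 (21.7%) fell at 10 µg. Bnip3l and Pink1, which act in the clearing of mitochondria, rose by 1.19 ± 0.06 and 1.31 ± 0.09 at 10 µg, and Retreg1, an endoplasmic reticulum receptor, by 0.67 ± 0.05. Irgm1, an interferon-induced GTPase, averaged 63.5 ± 2.0 CPM in 10 µg 24 h cells, against 136 ± 12.1 CPM in untreated cells, a fall of 1.10 ± 0.06 on the log2 scale (edgeR adjusted p 3.49e-14). At 10 µg for 6 h Irgm1 was higher than in untreated cells, by 0.33 ± 0.06 (edgeR adjusted p 0.000779). None of the 5 lists had a call at 1 µg for 6 h.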

How the data were processed

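RNA of 15 libraries was made with TRIzol, RNeasy columns and a TruSeq stranded mRNA kit, per the labels' protocols. The authors deposited raw read counts by gene symbol in a table with a column for each library. The build GRCm39 is named in the submitters' processing notes. For the aligner, the counting tool, the annotation and the strand setting, no source used here gives a name. All libraries carry batch label 1.

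Counts were fitted in R 4.3.3 with edgeR 4.0.16: filterByExpr at its defaults (12401 genes kept, with 99.97% of counts), TMM scaling, glmQLFit (robust) over all 15 libraries with 10 residual degrees of freedom, and two-sided glmQLFTest. P-values were adjusted by Benjamini-Hochberg over the tested genes. The SE was the log2 fold change over the square root of F. Each group had n = 3. Library totals of 19085148 to 22434642 counts set the precision. No library pair agreed within sampling noise.

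The 37 genes, the roles and the gene lists were chosen with earlier results of these data known. Full values are given for up to 8 called genes per comparison by smallest p and for the highest and lowest gene. Up to 4 genes are named per further list. Map1lc3a, Gabarapl1, Gabarapl2 and Atg10 were added after their values were seen. Prkaa2, Sesn3, Ddit3, Vamp7, Calcoco2 and Stbd1 were not tested. Lengths and exon overlaps are from GENCODE M21 (GRCm38), and promoter sequences from RefSeq (GRCm38.p6). Alternatives were DESeq2 1.42.0, limma-voom (limma 3.58.1), other size factors (RLE), no filter, only the groups compared, a replicate block and each library left out.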

Additional observations from a re-analysis of the deposited data

Results flagged for a closer look

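In 8 of the 37 genes the difference between 10 µg and 1 µg differed between 24 h and 6 h by the interaction test, with edgeR adjusted p-values of 0.000564 to 0.043. The dose effect at 24 h minus that at 6 h was 0.45 on the log2 scale for Sqstm1, 0.39 for Gabarap, 0.38 for Atg12 and 0.36 for Map1lc3b. It was 0.29 for Ulk1, 0.29 for Atg3, 0.24 for Atg13 and 1.07 for Optn. For Sqstm1 the dose effect was 0.76 ± 0.06 at 24 h and 0.32 ± 0.06 at 6 h, and for Gabarap it was 0.35 ± 0.05 and -0.04 ± 0.05. Atg12 had 0.35 ± 0.05 at 24 h and -0.03 ± 0.06 at 6 h, and Map1lc3b 0.40 ± 0.07 and 0.04 ± 0.07. For Ulk1 the values were 0.14 ± 0.07 at 24 h and -0.15 ± 0.07 at 6 h, neither of them called. For Optn, at about 1 CPM outside the 10 µg 24 h group, they were 1.72 ± 0.23 and 0.66 ± 0.28. The interactions of Sqstm1, Gabarap, Atg12 and Map1lc3b were called in every alternative run. That of Ulk1 was lost with no filter on low counts. Of the 12 libraries that enter it, leaving out 1 ended the call except for 1 µg 6 h replicate 3, 1 µg 24 h replicate 1 or 3 and 10 µg 6 h replicate 3, with adjusted p-values of 0.0527 to 0.12. Optn lost its interaction in DESeq2 (adjusted p 0.0828), with no filter on low counts (adjusted p 0.0832) and with a replicate block (adjusted p 0.0563). The Optn call was also lost without any library but 1 µg 6 h replicate 2 or 10 µg 24 h replicate 1, at adjusted p-values up to 0.12. Atg13 lost its call without 1 µg 6 h replicate 1 or 2, 1 µg 24 h replicate 2 or 3, 10 µg 6 h replicate 1 or 10 µg 24 h replicate 3, at adjusted p-values of 0.0524 to 0.0774. Atg3 lost its call without 1 µg 6 h replicate 2 or 3, 1 µg 24 h replicate 1, 10 µg 6 h replicate 1 or 2 or 10 µg 24 h replicate 2, at adjusted p-values of 0.0539 to 0.0771.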

How the results depend on the processing

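Of 132 calls of the 37 genes over 9 comparisons, 109 held in every alternative run, 23 were lost in at least 1 and 0 changed direction. Left-out libraries moved the genes called at 10 µg against 1 µg at 6 h to 0 to 1 (1 with all libraries) and the interaction calls to 4 to 12 (8 with all). Over all tested genes left-out libraries gave 0.887% to 1.3% and 14.1% to 21.8%, against 2.35% and 18.6% with all. For the lists they gave 1 to 4 calls of mTORC1, AMPK and stress genes (4 with all) and 0 to 1 transcription factors (1 with all) at 10 µg for 6 h, and 1 to 3 transcription factors between doses at 24 h (3 with all). Fitting only the groups compared gave 2 transcription factors, 1 initiation gene, 1 fusion gene and 4 further receptors at 10 µg for 6 h, in place of 1, 0, 0 and 2, and 1 transcription factor between doses at 24 h in place of 3. DESeq2 gave 2 transcription factors at 10 µg for 6 h in place of 1. The cause was not tested. Fitted with only the groups compared, 11 of the 37 genes were called between doses at 24 h, where all groups together gave 16. Over all tested genes that fit called 26.8% in place of 35.3% there, and 12.5% in place of 5.95% at 10 µg for 6 h. With a replicate block, 26 genes were called at 10 µg for 24 h in place of 27, 25 between times at 10 µg in place of 27 and 7 for the interaction in place of 8. Over all tested genes the block gave 8630, 8509 and 2252 calls in place of 8717, 8579 and 2307. The block ended the calls of Atg16l2 at 10 µg for 24 h (adjusted p 0.0586) and between times at 10 µg (0.055), of Atg4a between times at 10 µg (0.0523) and of Optn for the interaction (0.0563). Between times at 10 µg, the calls of Atg16l2 and Atg4a were each lost in 8 of 12 alternative runs. Fitting with no filter on low counts ended both (adjusted p 0.113 and 0.0881). Between groups, same-numbered libraries correlated at -0.08 to 0.10 (median 0.02) and differently numbered ones at -0.09 to 0.12 (median -0.01). Of 15 libraries, 9 correlated best with their own number, so these values do not settle whether the numbers mark pairs. Genes at about 1 CPM, such as Optn, are limited by depth.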

Other observations

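Further values of genes on the lists, picked here after their values were seen, follow for 10 µg at 24 h. Tfeb, a master regulator of lysosome genes, averaged 34.3 ± 2.38 CPM in 10 µg 24 h cells, against 31.6 ± 0.425 CPM in untreated cells, with a log2 fold change of 0.12 ± 0.07 that was not called (edgeR adjusted p 0.145). Tfe3, its relative, averaged 111 ± 2.3 CPM, against 112 ± 5.93 CPM, and was not called either. Nfe2l2, the gene of NRF2, averaged 289 ± 3.05 CPM in 10 µg 24 h cells, against 284 ± 4.94 CPM in untreated cells (edgeR adjusted p 0.618). Keap1, which holds NRF2 in check and is bound by p62, averaged 78.6 ± 6.63 CPM in 10 µg 24 h cells, against 127 ± 1.96 CPM in untreated cells, and fell by 0.69 ± 0.05 on the log2 scale (edgeR adjusted p 1.57e-11). Tex264, a receptor for the endoplasmic reticulum, averaged 59.6 ± 5.35 CPM in 10 µg 24 h cells, against 29.8 ± 0.979 CPM in untreated cells, a rise of 1.00 ± 0.07 (edgeR adjusted p 4.16e-12). Trib3, of the list of mTORC1, AMPK and stress control, stood at 178, 226 and 232 CPM in 10 µg 24 h cells. In untreated cells it stood at 5.76, 6.57 and 5.22 CPM.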
